A study of Mus musculus with 8 samples.

Results

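The motor neuron identity factors described here are 10 genes of the LIM-homeodomain programme: Mnx1, Isl1, Isl2, Lhx1, Lhx3, Lhx4, Lhx5, Ldb1, Lmo4 and Onecut1. They were picked by symbol, as the rows of the count and FPKM tables whose Ensembl mouse gene ID carries that symbol, and each symbol matched 1 of the 55471 gene IDs. RNA was sequenced from motor neurons made from the mouse embryonic stem cell line HBG3, which carries green fluorescent protein under the promoter of Hb9, the older name of Mnx1. All 8 libraries came from these cells, 3 days after the dissociated cultures were plated. The long noncoding RNA Lhx1os, whose gene starts beside that of Lhx1, was captured with biotinylated antisense probes of 20 nt, in one set called ODD (2 libraries) and another called EVEN (2 libraries). LacZ (2 libraries) was a capture with probes against a bacterial mRNA, and Input (2 libraries) was the sample each pull-down was compared with. The series describes 2 independent experiments, and replicate 1 and replicate 2 were taken to name them in every group. The labels name no sorting for the reporter, so the libraries may hold every cell type of the dish.

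LIM-homeodomain proteins bind DNA through a homeodomain and bind partner proteins through paired LIM zinc fingers. In the ventral spinal cord Isl1 and Lhx3 are held together by the adaptor Ldb1 in a complex that starts motor neuron genes, whereas Lhx3 with Ldb1 alone favours V2 interneurons, and Mnx1 represses the interneuron programme in motor neurons. Lmo4 is a LIM-only protein that competes for Ldb1, Lhx1 later marks motor neurons of the lateral limb column as well as several interneuron classes, and Onecut1 is a cut-homeodomain factor that acts with Isl1 in young motor neurons.

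Total counts ran from 7632775 to 24628435 per library, with the Input libraries the deepest, and levels are given below as CPM, the count scaled to a common total, on library sizes scaled by edgeR's TMM factors. Neuronal markers (Tubb3, Map2, Rbfox3, Snap25, Stmn2) summed to between 1850 and 2700 CPM in the 8 libraries. Motor neuron markers outside the set (Chat, Slc18a3, Slc5a7, Prph) summed to between 122 and 491 CPM. Progenitor markers summed to between 928 and 1640 CPM, astrocyte markers to between 188 and 446 CPM and oligodendrocyte lineage markers to between 93.2 and 727 CPM. The V2b markers held between 45.8 and 93.4 CPM, the V1 pair between 2.89 and 9.0 CPM, and the V3 pair between 20.6 and 101 CPM. Fibroblast markers held between 99.0 and 214 CPM, dorsal interneuron markers at most 4.78 CPM, V0 markers at most 0.827 CPM and pluripotency markers at most 0.453 CPM, with Pou5f1 and Dppa5a at 0 in all libraries.

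Lhx1 and Lhx1os run in opposite directions from starts 124 bp apart, so the stretch between them is printed first, as it is shared by a member and by the captured RNA. It lies at chr11:84525536-84525659 of GRCm38.p6, is given on the plus strand from the Lhx1 side to the Lhx1os side, and comes from the RefSeq promoter table. The capitals mark CCAAT, the box bound by NF-Y, and TGACGT, the core of the cAMP response element, which reads ACGTCA on this strand. The 3 members whose levels differed most between the experiments on average over the groups, Isl1, Isl2 and Onecut1, follow with the 250 bases before a RefSeq start, each on its gene's strand, with the same motifs in capitals.
Lhx1 to Lhx1os gap: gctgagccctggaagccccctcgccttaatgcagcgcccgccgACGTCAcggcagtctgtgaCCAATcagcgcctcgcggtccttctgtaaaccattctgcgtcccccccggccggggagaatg
Isl1 upstream, chr13:116309689-116309938, minus strand: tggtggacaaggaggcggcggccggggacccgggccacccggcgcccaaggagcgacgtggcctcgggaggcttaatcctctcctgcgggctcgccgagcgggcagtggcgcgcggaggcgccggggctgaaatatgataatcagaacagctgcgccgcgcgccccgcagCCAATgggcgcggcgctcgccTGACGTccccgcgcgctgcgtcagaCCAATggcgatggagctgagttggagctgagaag
Isl2 upstream, chr9:55540899-55541148, plus strand: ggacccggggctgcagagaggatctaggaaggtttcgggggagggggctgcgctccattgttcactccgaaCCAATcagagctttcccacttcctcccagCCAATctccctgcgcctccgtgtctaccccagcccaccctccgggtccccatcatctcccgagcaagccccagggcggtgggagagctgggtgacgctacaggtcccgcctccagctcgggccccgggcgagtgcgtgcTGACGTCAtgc
Onecut1 upstream, chr9:74861671-74861920, plus strand: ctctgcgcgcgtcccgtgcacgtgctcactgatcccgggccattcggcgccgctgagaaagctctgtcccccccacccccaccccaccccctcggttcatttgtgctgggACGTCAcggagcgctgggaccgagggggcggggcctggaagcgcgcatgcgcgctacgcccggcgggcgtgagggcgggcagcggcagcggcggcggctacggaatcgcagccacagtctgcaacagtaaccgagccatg

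In the gap the CCAAT box ends 58 bases before the Lhx1os start, and the TGACGT match ends 76 bases before it. RefSeq held such windows for 9 of the 10 members, 14 windows in all, as Lhx3, Ldb1 and Lmo4 have several starts. TGACGT, searched on both strands, was present in 5 of the 14 windows, those of Isl1, Isl2, Lhx1, Lhx4 and Onecut1, against 6.47% of the 32851 windows of that length in the table. CCAAT, searched the same way, was present in 5 windows, those of Mnx1, Isl1, Isl2, Lhx1 and 1 of Ldb1, against 33.8% of all windows. TAATTA, a common homeodomain core that reads the same on both strands, was in 0 of the 14 windows and in 4.84% of all. Also searched were GGGCGG, in 11 of the 14 windows (7 members) and 32.7% of all, and TATAAA, in 1 and 12.4%. The matches describe these letters only, and the windows of a gene can overlap.

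Lhx1os (ENSMUSG00000087211) was read first, because it is the target of the probes. Its counts were 55 and 61 in Input, 16 and 28 with LacZ probes, 2239 and 371 with ODD probes, and 1767 and 283 with EVEN probes. All 4 libraries made with Lhx1os probes stood above the other 4. The log2 fold change was 5.36 for ODD against Input (SE 1.1) and 5.06 for EVEN against Input (SE 1.08), with Benjamini-Hochberg adjusted p of 0.0322 and 0.0433 in edgeR. The call was lost without any 1 of the 4 Input and LacZ libraries, without ODD replicate 1 for ODD and without EVEN replicate 1 for EVEN (edgeR adjusted p up to 0.232 and 0.278). It was also lost with a filter of 50 counts in 2 libraries (0.0516 for ODD and 0.0645 for EVEN by edgeR), and for EVEN with limma on log2 FPKM (adjusted p = 0.0767). It held in the other 11 of 17 alternatives for ODD and 10 of 17 for EVEN, and the log2 change stayed at 3.76 or more for ODD and 3.27 or more for EVEN.

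The order of the 10 mRNAs in Input was read in FPKM, a scale that divides by gene length and so allows genes to be compared. Ldb1 was the most abundant at 49.5 ± 6.29 FPKM (SD, n = 2), above 95.1% of the 16524 genes that passed the filter on low counts. Mnx1 at 25.9 ± 6.72 and Lmo4 at 25.4 ± 3.46 FPKM came next, and their libraries overlapped. Isl1 at 16.7 ± 8.63 and Lhx4 at 13.7 ± 1.81 FPKM overlapped as well, with the wide spread of Isl1 coming from 10.6 FPKM in replicate 1 and 22.8 FPKM in replicate 2. Lhx1 stood alone at 7.43 ± 0.249 FPKM. Lhx3 at 3.3 ± 1.42 FPKM overlapped Onecut1 at 2.49 ± 0.968 FPKM, which overlapped Lhx5 at 1.83 ± 0.306 FPKM. Isl2 was the lowest at 0.989 ± 0.77 FPKM, with both libraries below those of Lhx5. Ldb1 ranked first, Lhx1 at 6, Lhx3 at 7 and Isl2 last in each of the 8 libraries. All 10 members passed the filter, so all were tested.

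**Figure D1:**
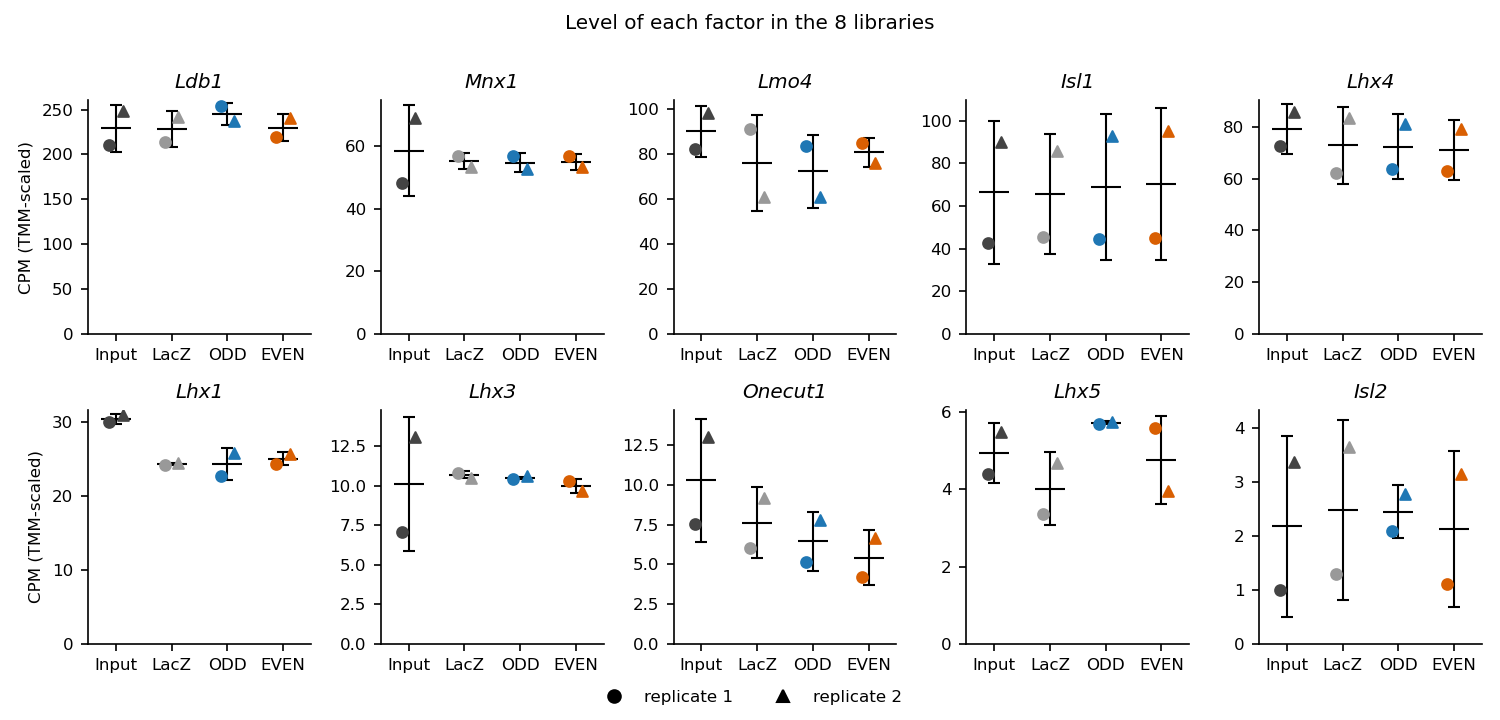
CPM of each factor in the 8 libraries, with circles for replicate 1, triangles for replicate 2, a horizontal line for the group mean and bars of 1 SD (n = 2). Lhx1 lies higher in both Input libraries, at 29.9 and 30.9 CPM, than in any pull-down, and Isl1 splits by replicate in all 4 groups.

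Against Input, 0 of the 10 factors passed an adjusted p of 0.05 in any of the 3 pull-downs or in their mean (edgeR's quasi-likelihood test). The background was 6.84% of tested genes called for ODD, 5.66% for EVEN, 7.41% for LacZ and 10.2% for the mean of the 3 pull-downs. The median log2 fold change of the members in that mean was -0.07, beside -0.02 for all genes tested. With replicate as a block, since the numbers were taken to name experiments, 1 member was called, Onecut1, in ODD, in EVEN and in the mean. The called shares were then 19.2%, 19.3%, 19.7% and 29.2% in the same order. The 3 comparisons with Input share the Input libraries, so they are not independent of each other. The members are taken in turn below by role.

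Lhx1 (ENSMUSG00000018698, chromosome 11, 84518284 to 84525535, minus strand) is the neighbour of the captured RNA. It stood at 29.9 and 30.9 CPM in Input, 24.2 and 24.4 with LacZ probes, 22.7 and 25.8 with ODD probes, and 24.3 and 25.6 with EVEN probes. Both Input libraries were above all 6 pull-downs, an arrangement found in 13.5% of tested genes, and the pull-downs overlapped one another whichever probes were used. The mean of the 3 pull-downs against Input was a log2 difference of -0.31 (SE 0.127), with an adjusted p of 0.192 by edgeR's quasi-likelihood test and 0.0503 with the replicate block. Removing each library's trend on GC content together with the block left -0.12 (SE 0.0995). Markers of V2b interneurons, a class that also makes Lhx1, summed to 70.8 and 93.4 CPM in Input. In the pull-downs they summed to between 45.8 and 68.3 CPM, with 3 of 3 fitted below Input. The V1 pair overlapped, at 5.02 and 9.0 CPM in Input and between 2.89 and 8.17 CPM in the pull-downs. The V0 markers overlapped too, at 0.412 and 0.827 CPM in Input and between 0.129 and 0.808 CPM in the pull-downs. Marker lists of other cells are set against Input further below. The part of any of these markers in the Lhx1 difference was not tested.

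Lhx5 (ENSMUSG00000029595, chromosome 5, 120431699 to 120441223, plus strand), the closest relative of Lhx1 in the family and a gene of spinal interneurons, was low. It had 4.4 and 5.5 CPM in Input, 3.35 and 4.69 with LacZ, 5.7 and 5.76 with ODD, and 5.58 and 3.95 with EVEN. The ODD libraries were the highest by a small margin, and how many genes show such an order was not counted. Exact 95% intervals by total count overlapped, at 4.41 to 7.13 CPM in ODD replicate 1 and 4.29 to 7.05 in EVEN replicate 1. The other groups overlapped. The mean pull-down differed from Input by -0.04 (SE 0.245, 95% interval -0.62 to 0.54). An antisense gene, Gm27199, shares 69 exon bases with Lhx5, but had at most 5 counts in any library.

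Mnx1 (ENSMUSG00000001566, chromosome 5, 29473034 to 29478470, minus strand), whose promoter drives the reporter of the line, had 48.3 and 68.9 CPM in Input, 57 and 53.5 with LacZ, 56.8 and 52.6 with ODD, and 56.8 and 53.2 with EVEN. The 6 pull-downs sat close together between 52.6 and 57 CPM, inside the gap between the Input libraries. The mean pull-down was -0.09 from Input (SE 0.161, 95% interval -0.47 to 0.29).

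Isl1 (ENSMUSG00000042258, chromosome 13, 116298281 to 116309689, minus strand), the partner of Lhx3 in the motor neuron complex, had 42.6 and 90.2 CPM in Input, 45.6 and 85.6 with LacZ, 44.7 and 93.0 with ODD, and 45.1 and 95.4 with EVEN. Every replicate 2 library was far above its replicate 1 partner, and the 4 groups overlapped. Pull-downs and Input differed by 0.04 (SE 0.46), and with the replicate block by 0.05 (SE 0.0897, 95% interval -0.16 to 0.26). Isl2 (ENSMUSG00000032318, chromosome 9, 55538672 to 55546180, plus strand), its relative expressed after cell cycle exit, rested on 10 to 69 counts and had 0.988 and 3.36 CPM in Input, 1.29 and 3.65 with LacZ, 2.09 and 2.78 with ODD, and 1.1 and 3.14 with EVEN. The smallest count, 10 in LacZ replicate 1, has an exact binomial 95% interval of 0.628 to 2.41 CPM by total count, which covers counting error only. Its log2 interval for the mean pull-down against Input, -1.34 to 1.58, was the widest of the set.

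Lhx3 (ENSMUSG00000026934, chromosome 2, 26200212 to 26208289, minus strand) had 7.08 and 13.1 CPM in Input, 10.8 and 10.5 with LacZ, 10.4 and 10.6 with ODD, and 10.3 and 9.69 with EVEN. Like Mnx1, it was nearly level over the pull-downs and lay between the Input libraries, with a mean difference of 0.04 (SE 0.249). Lhx4 (ENSMUSG00000026468, chromosome 1, 155698031 to 155751684, minus strand), which overlaps Lhx3 in function in early motor neurons, had 72.5 and 86.0 CPM in Input, 62.3 and 83.6 with LacZ, 63.6 and 81.3 with ODD, and 62.8 and 79.3 with EVEN. The replicate 2 library was the higher in each of the 4 groups, and the groups overlapped. Pull-downs were -0.13 from Input (SE 0.185), with an edgeR adjusted p of 0.732.

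Ldb1 (ENSMUSG00000025223, chromosome 19, 46031570 to 46045214, minus strand), the adaptor of the complex, had 210 and 248 CPM in Input, 214 and 242 with LacZ, 254 and 237 with ODD, and 219 and 241 with EVEN. All groups overlapped, and the interval against Input was narrow, from -0.29 to 0.35 around 0.03. With the block and the GC trend removed the difference was 0.3 (edgeR adjusted p = 0.0628). Ldb1 shares 177 exon bases with Pprc1 on the other strand, and the strand setting of the counting is not given in the sources used. Lmo4 (ENSMUSG00000028266, chromosome 3, 144188530 to 144205220, minus strand), which binds Ldb1 without DNA, had 82.0 and 98 CPM in Input, 91.0 and 60.8 with LacZ, 83.5 and 60.7 with ODD, and 84.9 and 76.0 with EVEN. Replicate 2 was the lower library in each pull-down and the higher one in Input. The mean pull-down was -0.24 from Input (SE 0.203, adjusted p = 0.541 by the same test). A noncoding gene within an intron of Lmo4 on the same strand, Gm43445, had 0.823 and 1.99 CPM in Input. In the pull-downs it had between 2.09 and 3.82 CPM, on 20 to 44 counts over the 8 libraries (log2 1.09, edgeR adjusted p = 0.162). With the replicate block it was called higher by edgeR in the mean of the pull-downs (log2 1.13, adjusted p = 0.0155), in LacZ (1.36, 0.0217) and in EVEN (1.08, 0.0499), and not in ODD (0.94, 0.0802). Genes called higher with the block numbered 2648, 2092, 2123 and 2086 of the 16524 tested, in the same order.

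Onecut1 (ENSMUSG00000043013, chromosome 9, 74861921 to 74891781, plus strand) was the member that lay furthest from Input. It had 7.53 and 13.0 CPM in Input, 6.05 and 9.21 with LacZ, 5.14 and 7.78 with ODD, and 4.22 and 6.64 with EVEN. Within each experiment Input was the highest library, followed by LacZ, ODD and EVEN. Without the block the log2 difference was -0.67 for ODD (SE 0.409, adjusted p = 0.471) and -0.92 for EVEN (SE 0.412, adjusted p = 0.292) in edgeR. The replicate block took the adjusted p to 0.0343 for ODD (log2 -0.65, SE 0.169) and 0.0117 for EVEN (log2 -0.91, SE 0.172) by that test, beside 6.55% and 6.41% of genes called lower. LacZ against Input was -0.42 with the block (SE 0.17, adjusted p = 0.134), and the mean of the pull-downs fell by 0.66 (SE 0.131, adjusted p = 0.00891, with 13.1% of genes called lower). The order of LacZ above EVEN was not a called difference: EVEN against LacZ was -0.49 with the block (SE 0.185, unadjusted p = 0.031, adjusted p = 1 by edgeR). Without Input replicate 2 the unblocked mean difference shrank to -0.23, and without Input replicate 1 it was -1.02. Onecut1 shares 2171 exon bases with the same-strand gene Gm20649, which had at most 1 count in any library, and its counts depend on how reads in that stretch were assigned.

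The direct comparison of the Lhx1os probe sets with LacZ probes asks what came with Lhx1os beyond what any capture brings. Neither the members nor any other gene passed (0.0% called for ODD, for EVEN and for their mean, with 170, 283 and 218 genes under an unadjusted p of 0.05 by edgeR, and 1, 13 and 2 genes called by DESeq2). Lhx1os itself was 5.42 higher on the log2 scale with the Lhx1os probes (SE 1.1, 95% interval 2.82 to 8.02, unadjusted p = 0.00172, adjusted p = 1 by edgeR). It was called in 2 of the 17 alternatives run on that comparison, with an adjusted p of 2.2e-09 by DESeq2 and 1.12e-18 by edgeR with no filter beyond 1 count, and the log2 change ran from 4.53 to 5.81 over the alternatives. Lhx1, on the other side of the 124 bp, was 0.02 (95% interval -0.31 to 0.35). Ldb1 at 0.06 (-0.28 to 0.4) and Mnx1 at -0.01 (-0.42 to 0.4) had intervals of similar width. The largest differences were 0.37 for Lhx5 (-0.28 to 1.02) and -0.37 for Onecut1 (-1.22 to 0.47). Isl1 (0.08, -1.08 to 1.24) and Isl2 (-0.16, -1.76 to 1.45) had the widest intervals. With the replicate block the interval of Isl1 narrowed to -0.17 to 0.29. The upper limits of all 10 members were below the lower limit of Lhx1os.

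**Figure D2:**
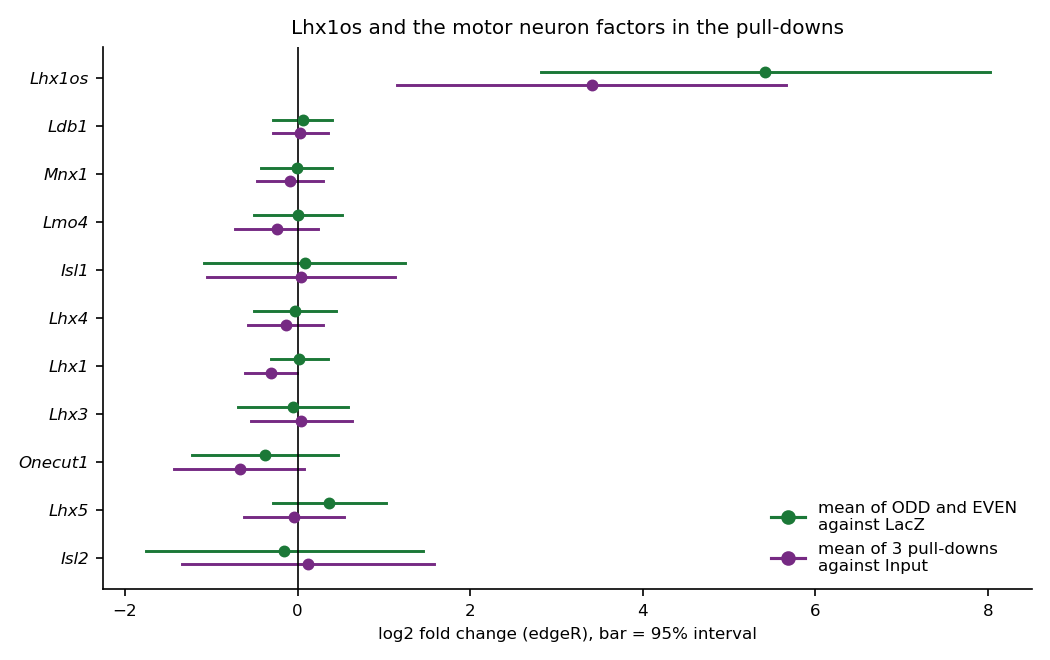
Log2 fold change with its 95% interval from edgeR for Lhx1os and the 10 factors, with the Lhx1os probe sets averaged against LacZ, and with all 3 pull-downs averaged against Input. Lhx1os lies at 5.42 and 3.41, and the factors lie between -0.67 and 0.37.

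Several members differed between the experiments in every group. Isl1 was 1.88 to 2.12 times higher in replicate 2 than in replicate 1 across the 4 groups, and Onecut1 was 1.51 to 1.73 times higher. These were the 2 members at least 1.5-fold higher in all 4 groups, against 4.88% of tested genes, and 0 members were that much lower, against 3.07%. For Isl1, Isl2 and Lhx4 every replicate 2 library was above every replicate 1 library, an arrangement of 12.7% of tested genes. Isl2 was 1.33 to 3.4 times higher and Lhx4 1.19 to 1.34 times higher. Lhx1 was the steadiest member, at 1.01 to 1.14 times. The libraries of a replicate share an experiment, so this is 1 experiment against 1, and no test was made.

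Other genes differed between the experiments beside Isl1 and Onecut1. The summed level of the motor neuron markers was 122 to 144 CPM in replicate 1 and 447 to 491 CPM in replicate 2, with 4 of 4 higher in every group. Of these markers Prph differed most, at 4.86 to 7.18 times. The enzymes and transporters of acetylcholine differed the same way. Chat, which makes it, was 2.74 to 3.1 times higher, and the choline transporter Slc5a7 3.16 to 3.96 times. Slc18a3 was 1.35 to 1.73 times higher and Ache 1.51 to 2.0 times. The oligodendrocyte lineage markers went from 495 to 727 CPM down to 93.2 to 125 CPM, with 3 of 3 lower in every group. Of the progenitor markers, 4 of 5 were lower in every group. Among them Olig2 was 0.359 to 0.403 times its replicate 1 level, whereas Nes was 0.933 to 1.07 times. The V2b markers were higher in every group in 3 of 3, and the neuronal markers in 2 of 5. How many of all genes kept one direction in every group was not counted. Whether the cultures held more motor neurons or more of the motor neuron and cholinergic RNAs per cell cannot be told apart in bulk libraries. The part of these markers in the values of Isl1, Isl2 and Onecut1 was not tested.

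**Figure D3:**
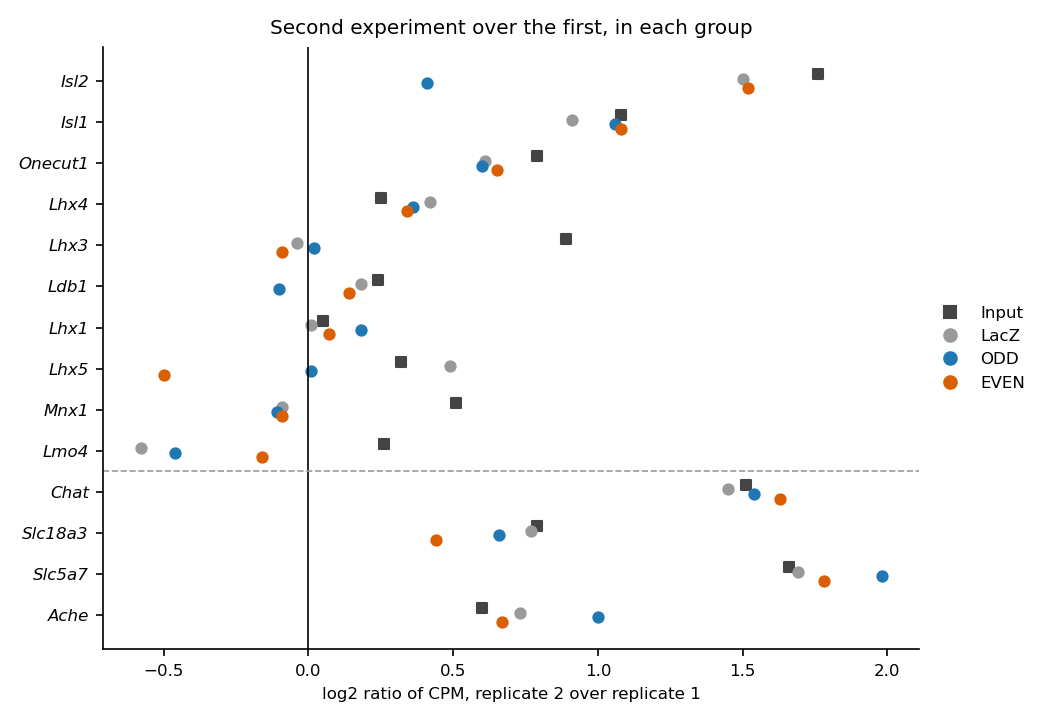
Log2 ratio of CPM, replicate 2 over replicate 1, in each of the 4 groups, for the 10 factors and, below the dashed line, 4 cholinergic genes. Isl1 lies between 0.91 and 1.08 in all groups, whereas Mnx1 and Lhx3 lie at 0.51 and 0.89 in Input and between -0.11 and 0.02 in the pull-downs.

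Mnx1, Lhx3, Ldb1 and Lmo4 lay on opposite sides of their Input in the experiments. Each was above its own Input in 3 of 3 pull-downs of replicate 1 and below it in 3 of 3 of replicate 2, as were 8.36% of tested genes. For Lhx3 the log2 ratios were 0.61, 0.56 and 0.54 (LacZ, ODD, EVEN) in replicate 1 and -0.32, -0.31 and -0.43 in replicate 2. For Mnx1 they were 0.24, 0.23 and 0.23, then -0.36, -0.39 and -0.37. The 3 probe sets thus lay close together for both genes within an experiment. The 3 ratios of an experiment share 1 Input library, so their common sign is not 3 separate observations. Replicate 2 over replicate 1 was log2 0.51 for Mnx1 and 0.89 for Lhx3 in Input. In the pull-downs it lay between -0.11 and 0.02 for both genes. Lhx1, Lhx4 and Onecut1 were below their own Input in 6 of 6 pull-downs, as were 24.7% of tested genes, and 0 members were above it in 6 of 6, against 23.4% of genes. GC-rich genes, those of 57% GC or more, were lower at the median in every pull-down over its Input, in both experiments. Their median log2 ratios were -0.15, -0.09 and -0.09 (LacZ, ODD, EVEN) in replicate 1 and -0.22, -0.22 and -0.24 in replicate 2. Lhx3 (60.3% GC), Mnx1 (58.7%) and Ldb1 (57.9%) are such genes, and Lmo4 (50.5%) is not. Isl2 and Lhx5 are such genes too, and did not have the arrangement of 3 of 3 above Input, then 3 of 3 below. The part of GC content in the change of sign was not tested.

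**Figure D4:**
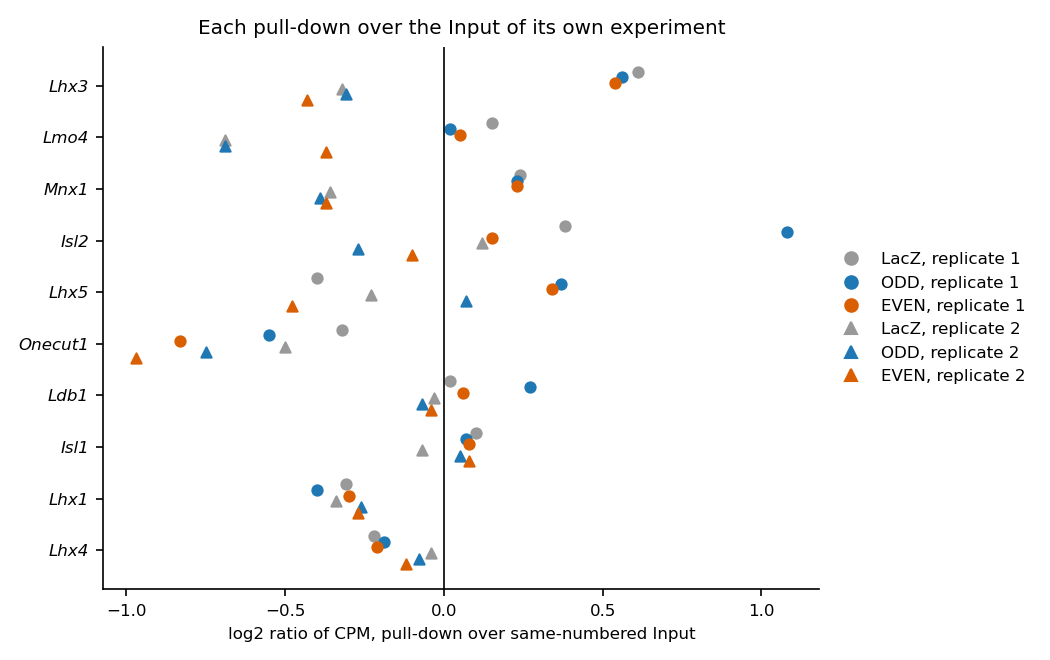
Log2 ratio of CPM of each pull-down over the Input of its own experiment, with circles for replicate 1 and triangles for replicate 2. Lhx3 and Mnx1 are split by experiment on either side of 0, and Onecut1 and Lhx1 lie left of 0 in all 6 pull-downs.

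The wider programme was read from 4 lists that hold the members and their relatives. Of the 12 LIM-homeodomain genes, 10 were tested (Lhx8 and Lhx9 were too low), and their median in the mean of the pull-downs against Input was -0.08, with 0 called. The replicate block called 1 of them lower, Lmx1b, a factor of dorsal neurons (-0.38, SE 0.115, edgeR adjusted p = 0.0435), a share below the 13.1% of all genes called lower with the block. In the same comparison the 10 LIM-only and LDB cofactor genes had a median of -0.23, beside -0.02 for all genes. Ssbp3, the single-stranded DNA-binding protein that stabilises Ldb1, was called lower without the block (-0.51, SE 0.114, adjusted p = 0.0348 by the same test). Genes called lower without the block in that comparison numbered 296 of the 16524 tested. The levels of Ssbp3 were 306 and 337 CPM in Input and between 212 and 235 CPM in the pull-downs. Both Input libraries were thus above all 6 pull-downs, as in 13.5% of tested genes. The block added Lmo3 (-0.36) and Ldb2 (-0.54), which made 3 of 10 lower beside the same 13.1%, and Rlim, the ligase that degrades Ldb1 complexes, was -0.2 without a call.

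Among 16 other transcription factors of motor neurons and their progenitors, 16 of 16 lay below 0 in the mean of the pull-downs against Input, beside 8624 of all 16524 genes, with a median of -0.2 and 0 called. Some marker lists lay wholly below Input in that comparison. Among them were 5 of 5 neuronal markers (median -0.31), 3 of 3 V2b (-0.55), 3 of 3 oligodendrocyte lineage (-0.49) and 4 of 4 fibroblast markers (-0.57). The 2 V1 markers (-0.35), the 2 astrocyte markers tested (-0.43) and the 1 dorsal interneuron marker tested (-0.24) were below Input as well. Other lists were mixed, with 3 of 5 progenitor markers (-0.25), 3 of 4 motor neuron markers (-0.07) and 1 of 2 V3 markers below Input. The part of any of these markers in the values of the transcription factors was not tested. The block called 5 of the 16 lower, beside 13.1% of all genes called lower with the block: Onecut1, its relative Onecut3 (-0.55), Ebf3 (-0.32), the bHLH factor Neurod4 (-0.49) and Olig2 (-0.58). Nkx6-1, a progenitor and motor neuron homeodomain factor at 49.2 ± 2.8 FPKM in Input (SD, n = 2), was -0.2, and Stat3 was -0.08, with no call for either. The 4 cholinergic effector genes had a median of -0.06 with 0 called without the block, and the block called Chat higher (0.81, SE 0.0995, edgeR adjusted p = 0.00121), beside 29.2% of all genes called in either direction. Chat had 12.8 and 36.5 CPM in Input and between 21.1 and 73.2 CPM in the pull-downs, and each pull-down was above its own Input. Slc18a3, the vesicular acetylcholine transporter, lies within an intron of Chat, and was -0.26 with the block (adjusted p = 0.098 by edgeR); Slc5a7 and Ache were -0.09 and -0.1. Against LacZ, 0 genes of any of the 4 lists were called with or without the block.

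Sequence shared with Lhx1os was measured as the longest stretch of each member's longest GENCODE transcript that is identical to, or the reverse complement of, a stretch of any of the 3 Lhx1os isoforms. The stretches were 10 to 13 bases long in the members, against a median of 11 over 16507 genes for either kind, and all were shorter than a 20 nt probe. The longest are printed to show this scale, with build GRCm38 and the member's own strand.
Lmo4, complementary, 5′ UTR in exon 1, chr3:144205143-144205155, minus strand: ccgcgcgggcccg
Lhx1, identical, 3′ UTR in exon 5, chr11:84518304-84518315, minus strand: aaaaaagtgtta
Lhx4, identical, 3′ UTR in exon 6, chr1:155698522-155698533, minus strand: caggtttgggag
A complementary stretch of at least 13 bases was found in 13.2% of genes, and an identical stretch of at least 12 bases in 31.7%. In Lhx1 the longest complementary stretch was 11 bases, a length reached by 59.0% of genes.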

How the data were processed

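Motor neurons made from mouse embryonic stem cells gave 8 RNA libraries, sequenced after a stranded total RNA preparation with ribosomal RNA removal, per the labels' protocols. The authors deposited raw counts for each Ensembl gene ID and FPKM values; dividing a count by the deposited gene length and its column total gave that FPKM (largest relative difference 6.64e-14). The submitters' processing notes name cutadapt 3.2, Bowtie2 2.4.2, Picard, HTSeq 0.13.5 and GRCm38. The tools' roles, the annotation and the strand setting of the counting are not given in the sources used. Of the 55471 gene IDs, 55230 matched GENCODE release M21, and for 54741 of those (99.1%) the deposited length was equal to the merged exon length there. Other IDs held at most 0.00458% of a library's counts.

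The quasi-likelihood test of edgeR 4.0.16 (R 4.3.3) was run on the counts of the 8 libraries together, with group as sole factor, TMM scaling and edgeR's filter on low counts by group, leaving 16524 genes. P-values were two-sided and adjusted over these genes by the Benjamini-Hochberg method, with a threshold of 0.05. Intervals are 95%. CPM used the TMM-scaled totals. The fit was checked on simulated counts. Also tried were RLE size factors, DESeq2 1.42.0, library totals alone, no filter beyond 1 count, 50 counts in 2 libraries, a replicate block alone and with each library's GC trend removed (natural spline, 5 degrees of freedom), limma 3.58.1 on log2(FPKM + 1), a fit of only the groups compared, and leaving out each library. The replicate number stands in the sample titles and was taken to name the 2 independent experiments of the series, so that it pairs libraries. The correlation of their deviations from group means was 0.506 to 0.708 over 6 pairs of groups. With 2 libraries per group, p-values of the fit without the block measure the spread between the experiments. With the block they measure the spread left after the mean difference between the experiments is taken out. Depth limits genes of few counts, above all in the pull-downs.

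All 10 members and Lhx1os are named with values. From 4 lists of LIM-homeodomain, cofactor, other transcription factor and cholinergic genes, those called in any comparison and the 3 highest in Input are named. The members, lists and markers were chosen with earlier results of these data known, and the scalings tried on the ratios within and between experiments were added after seeing the data. Upstream windows came from RefSeq (GRCm38.p6), with 9 of 10 members matched, and transcripts and GC content from GENCODE. The result of 1 marker list is not reported here. A chance test over the members was not made.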

Additional observations from a re-analysis of the deposited data

Results flagged for a closer look

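The ratio of pull-downs to the Input of the same experiment had opposite signs in the experiments for 4 members, with all 3 pull-downs on one side in replicate 1 and all 3 on the other side in replicate 2. The mean log2 ratio was 0.24 in replicate 1 and -0.38 in replicate 2 for Mnx1. For Lhx3 it was 0.57 and -0.35, for Ldb1 0.12 and -0.05, and for Lmo4 0.07 and -0.58. The difference between the experiments was not tested, since each has 1 Input library that all 3 ratios share, and 8.36% of tested genes had the same arrangement. The signs of these means were the same with RLE size factors and with total library size, with Ldb1 between 0.07 and 0.14 in replicate 1 and Lmo4 between 0.03 and 0.1.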

How the results depend on the processing

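No member was called under any alternative except Onecut1 under the replicate block. Pairing by replicate as a block called 3169 genes for ODD, 3182 for EVEN, 3249 for LacZ and 4819 for the mean of the pull-downs against Input, in place of 1130, 935, 1224 and 1679, and 1 member instead of 0 for ODD, for EVEN and for the mean. With the block and the GC trend removed the counts were 3790, 3651, 3885 and 5348, again with 1 member for ODD, for EVEN and for the mean. The share of calls that were higher went from 94.5% for ODD to 65.8% with the block and 53.1% with the GC trend also removed, and for the mean from 82.4% to 54.9% and 49.9%. The block changed no other member's call. Without a filter beyond 1 count 2064, 1860, 2118 and 2898 genes were called in the same order, and with 50 counts in 2 libraries 535, 494, 565 and 786, where Isl2 was not tested. Fitting only the groups compared gave 709 for ODD and 477 for EVEN, while EVEN had 1452 with DESeq2 and 440 with limma. Against LacZ, DESeq2 called 1 gene for ODD, 13 for EVEN and 2 for their mean, and no filter called 75, 72 and 81. Leaving out a library gave 132 to 895 calls for ODD, 0 to 737 for EVEN, 214 to 1004 for LacZ and 289 to 1325 for the mean against Input, the lowest each time without Input replicate 1. Against LacZ it gave 0 to 7 for ODD, 0 to 5 for EVEN and 0 to 3 for their mean. The cause of these shifts was not tested.

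Several small log2 differences changed sign without a call. In the mean of the pull-downs against Input, the block with GC trend removed gave 0.18 for Mnx1, -0.03 for Isl1 and 0.23 for Lhx5, the stricter filter 0.01 for Lhx5, and no filter -0.01 for Ldb1. Leaving out a library gave -0.33 to 0.18 for Mnx1, -0.41 to 0.67 for Isl1, -0.52 to 1.23 for Isl2, -0.34 to 0.54 for Lhx3, -0.2 to 0.11 for Lhx5 and -0.09 to 0.15 for Ldb1. For the averaged Lhx1os probe sets against LacZ, Lhx1 was -0.03 with total library size and with limma. Lmo4 was -0.01 with DESeq2, with RLE, with the stricter filter and with only the groups compared, -0.04 with total library size and -0.03 with limma. Leaving out a library there gave -0.06 to 0.04 for Mnx1, -0.3 to 0.61 for Isl1, -0.68 to 0.81 for Isl2, -0.03 to 0.06 for Lhx1, -0.22 to 0.2 for Lhx4, -0.03 to 0.15 for Ldb1 and -0.26 to 0.33 for Lmo4. Onecut1 in LacZ against Input ran from -0.77 to 0.02. The order of the members in Input was the same with TMM-scaled FPKM.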
